A study of Rattus norvegicus with 8 samples.

Results

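The genes described here are a set of cell cycle and DNA replication genes, chosen by name from the known machinery of cell division, and their RNA was measured in rat lung during hypobaric hypoxia. The list held 38 genes, and 37 of them were found by their gene name on the array and tested among 24162 genes in all; Aurka, the kinase Aurora A, was not found under that name. For 7 days rats were given either normal saline or cobalt, at 12.5 mg per kg of body weight. They then spent 6, 12, 24 or 48 h at low pressure, matching an altitude of 30000 ft. Lung RNA from each pretreatment and duration was hybridized on 1 array beside 0 h RNA from rats with that pretreatment, giving 8 arrays, and the value of a gene is its log2 ratio of hypoxia over 0 h. Hypoxia RNA carried Cy5 on the saline arrays and Cy3 on the cobalt arrays, and each pretreatment had its own slide and scan day. An effect of cobalt cannot be told apart from one of the slide, its scan or its dyes. The 4 arrays of a pretreatment share 1 control RNA, and nothing says how many animals went into an RNA, so the p-values below take the 4 durations as replicates, and variation of the 0 h RNA does not enter them. The strain, sex and age of the rats were not given in the sources used here.

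Cell division needs 2 programmes of transcription that follow each other. Before and during S phase, E2F factors switch on the genes for DNA replication, such as the MCM helicase subunits, the sliding clamp PCNA and the enzymes that make nucleotides. In G2 and mitosis, B-MYB, FOXM1 and the DREAM complex act through the cell cycle homology region (CHR). Their targets are the genes for mitotic cyclins, kinases and spindle proteins, whose promoters often hold CCAAT boxes as well. Most cells of an adult lung do not divide, and these genes are used there as markers of proliferating cells. In RNA from whole lung, fewer dividing cells and less RNA per dividing cell cannot be told apart. All 10 lung markers on the list, among them the surfactant genes Sftpc and Sftpb, passed the filter on dim probes.

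Most members had mean ratios on opposite sides of 0 on the saline and the cobalt arrays. On the saline 6 h and 24 h arrays most were below 0 too, with 9 and 7 of 37 above it. On the saline arrays 28 of 37 members had a mean ratio above 0, with a median of 0.15, and on the cobalt arrays 0 of 37 did, with a median of -0.64. All genes tested had medians of 0.03 and -0.02 in these comparisons. With limma and Benjamini-Hochberg adjustment over all genes, 17 members fell on the cobalt arrays and 0 rose, which is 45.9% of the members beside 20.8% of all genes called (12.3% lower and 8.53% higher). On the saline arrays 2 members rose and 1 fell, 8.11% of the members beside 40.1% of all genes (21.8% higher and 18.3% lower). Without the cobalt 12 h array 1 member was called on the cobalt side, without the 24 h array 2 and without the 48 h array 8. These are 2.7%, 5.41% and 21.6% of the members beside 10.2%, 9.52% and 13.8% of all genes, so that the members' share was below the background without the 12 h or the 24 h array. Without the saline 12 h array limma called 0 members on the saline side, beside 31.9% of all genes, and without the 6 h or the 24 h array 5, beside 37.2% and 32.4%. Without the saline 48 h array 0 rose and 2 fell, beside 34.9% of all genes called, and the saline median over the members was -0.01, so the saline median above 0 rests on the 48 h array.

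**Figure D1:**
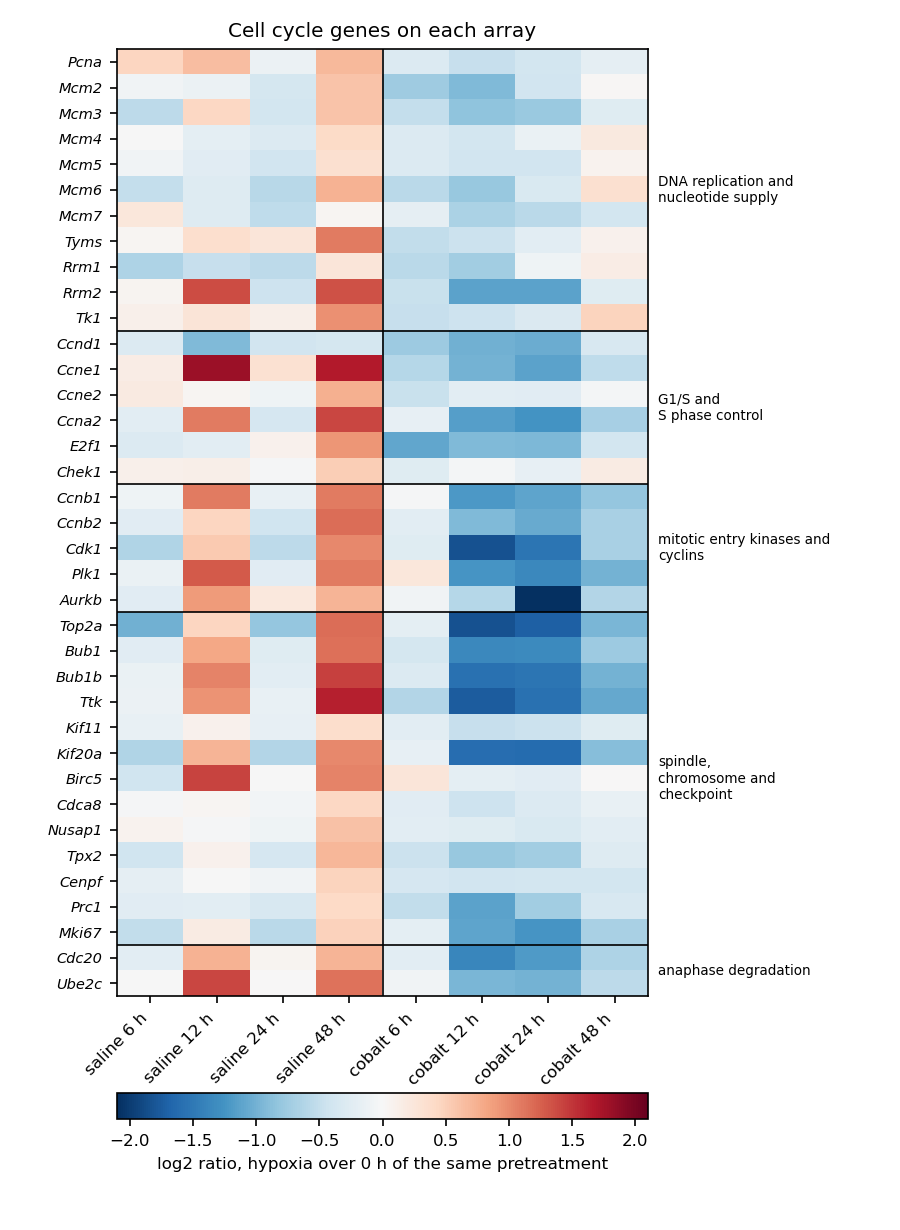
Log2 ratio of hypoxia over 0 h (colour) of the 37 members (rows, by role) on each of the 8 arrays (columns). Most members are red at 12 and 48 h on the saline arrays and blue at 12 and 24 h on the cobalt arrays; the lowest value is Aurkb at -2.09 on the cobalt 24 h array.

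The median ratio of all 37 members on the saline arrays was -0.16 at 6 h, 0.35 at 12 h, -0.24 at 24 h and 0.73 at 48 h. On the cobalt arrays it was -0.29 at 6 h, -0.92 at 12 h, -0.78 at 24 h and -0.34 at 48 h. The members thus went up and down from one saline array to the next, and were lowest on the cobalt arrays of 12 and 24 h. The order of the saline arrays, with 12 h and 48 h both above 6 h and 24 h, was seen in 29 of 37 members and in 12.9% of all genes; with a margin of more than 0.5 it was seen in 17 members and in 0.882% of all genes. On the cobalt arrays 6 h was above the other 3 durations in 19 members beside 33.2% of all genes, and by more than 0.5 in 7 members beside 1.91%. Both margins of 0.5 were met by 6 members, Ccna2, Ccnb1, Plk1, Top2a, Bub1b and Kif20a, beside 0.0911% of all genes. All 4 cobalt arrays were below 0 in 27 members beside 27.1% of all genes. The saline 48 h array was above 0 in 36 members, all but Ccnd1, beside 51.7%, and above the 6 h array in 35 beside 49.7%; the cobalt 48 h array was above the 12 h array in 36, all but Aurkb, beside 48.4%. These orders were picked after their values were seen and carry no test. Each duration has 1 array per pretreatment, so a duration and an array cannot be told apart. The SD over the 4 arrays of a pretreatment, pooled over both, had a median of 0.45 among the members and 0.17 among all genes.

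The kinases and cyclins of mitotic entry varied most among the roles, with a median pooled SD of 0.71. Cdk1, the kinase that drives entry into mitosis (named Cdc2a on the array), had saline ratios of -0.64, 0.55, -0.55 and 1.01 at 6, 12, 24 and 48 h. Its cobalt ratios were -0.25, -1.83, -1.53 and -0.68. The 2 saline arrays above 0 are 12 h and 48 h, and all 4 cobalt arrays are below 0. Cdk1 fell on the cobalt arrays by 1.08 ± 0.31 (SE; 0.475-fold, limma adjusted p = 0.0356) and averaged 0.10 on the saline arrays. Ccnb1, cyclin B1, the activating partner of CDK1, had saline ratios of -0.09, 1.09, -0.16 and 1.09. Its cobalt ratios were -0.03, -1.20, -1.10 and -0.81, all lower than the saline 12 h and 48 h values. Neither pretreatment passed the test alone (limma adjusted p = 0.0527 on the cobalt arrays), but the cobalt ratio was lower than the saline ratio by 1.27 ± 0.36 (adjusted p = 0.0245). Plk1, a kinase of mitotic entry and spindle assembly, reached 1.28 at 12 h and 1.096 at 48 h on the saline arrays, and at 0.23 the cobalt 6 h array was its only cobalt array above 0. Ccnb2, cyclin B2, had 1.17 at 48 h on the saline arrays and -1.07 at 24 h on the cobalt arrays.

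Aurkb, the kinase Aurora B of the chromosomal passenger complex, had saline ratios of -0.24, 0.90, 0.22 and 0.72 and cobalt ratios of -0.07, -0.60, -2.09 and -0.61. The cobalt 24 h array stands far below the other 3. A probe labelled Aim1 on the array, which the reference names Aurkb, lies on chromosome 20 in rn3, whereas the probe of Aurkb lies on chromosome 10. The reference also places the Aurkb gene on chromosome 10, so the Aim1 probe is not read as a second probe of Aurkb. What it measures was not tested, and it is not counted among the members. The Aim1 probe had -0.35 on the cobalt 24 h array and a cobalt mean of -0.33. The probe that the reference names Aurka, labelled Stk6 on the array, had a mean of 0.19 on the saline and -0.06 on the cobalt arrays and is not counted among the members.

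Of the 13 spindle, chromosome and checkpoint members, 11 fell on the cobalt arrays, with a median of -0.67. That is 84.6% called beside 20.8% of all genes (12.3% lower). Without the cobalt 12 h or 24 h array limma called only 1 and 2 of all 37 members there, beside 10.2% and 9.52% of all genes. On the saline arrays 0 of the 13 were called, beside 40.1% of all genes. At an unadjusted p under 0.05 limma gave 0 there, beside 49.5%. Top2a, the topoisomerase that untangles sister chromosomes, had saline ratios of -1.02, 0.45, -0.81 and 1.17. Its cobalt ratios were -0.20, -1.83, -1.71 and -0.97. The saline arrays lie on both sides of 0 and the cobalt arrays all below it, and its pooled SD of 0.91 lay at percentile 99.2 of all genes. On the cobalt arrays Top2a fell by 1.18 ± 0.36 (0.442-fold, limma adjusted p = 0.0449). Mki67, which codes for the proliferation marker Ki-67, had saline ratios of -0.52, 0.17, -0.57 and 0.48 and cobalt ratios of -0.21, -1.11, -1.23 and -0.69. It was below 0 on 6 of 8 arrays. Prc1, which bundles the microtubules of the central spindle, had saline ratios of -0.24, -0.22, -0.33 and 0.41 and cobalt ratios of -0.51, -1.12, -0.73 and -0.33. Its saline 48 h array is the only one above 0. The hypoxia channel of Prc1 was well above background on 2 of 4 saline and 3 of 4 cobalt arrays.

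The checkpoint kinases Bub1 and Ttk and the checkpoint protein Bub1b fell on the cobalt arrays by 0.96 ± 0.25, 1.25 ± 0.29 and 1.09 ± 0.29 (limma adjusted p = 0.0239, 0.0145 and 0.0271). Ttk, also known as MPS1, had the largest fall of any member there, to 0.419-fold. The dimmer probes of Ttk and Top2a had cobalt means of -0.21 and -0.38, and the other probes of Bub1b -0.90 and -0.03. Kif20a, a kinesin of cytokinesis, fell by 1.07 and Kif11, the kinesin that separates the spindle poles, by 0.35. Tpx2, a spindle assembly factor, fell by 0.56, the kinetochore protein gene Cenpf by 0.38 and Cdca8, a subunit of the passenger complex, by 0.28. Birc5, which codes for survivin, another subunit of that complex, did not follow them: its cobalt ratios were 0.26, -0.20, -0.23 and 0.00, beside saline ratios of -0.42, 1.41, -0.02 and 1.04. Nusap1, which binds spindle microtubules, was not well above background in the hypoxia channel of any cobalt array; its 0 h signal there was at least 1.19-fold higher, a bound taken against the lowest signal well above background or the probe's own signal. Cenpf had saline ratios of -0.19, -0.02, -0.07 and 0.47 and cobalt ratios of -0.35, -0.40, -0.39 and -0.38, so that its cobalt arrays hardly differed from each other.

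Cdc20 and Ube2c mark proteins for destruction at anaphase with the anaphase-promoting complex. Cdc20 fell on the cobalt arrays by 0.86 ± 0.21 (limma adjusted p = 0.0176), and on the saline arrays its mean was 0.32. Ube2c, the ubiquitin-conjugating enzyme, reached 1.40 at 12 h and 1.14 at 48 h on the saline arrays and -0.965 and -0.998 at 12 and 24 h on the cobalt arrays. It did not pass on either side alone.

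**Figure D2:**
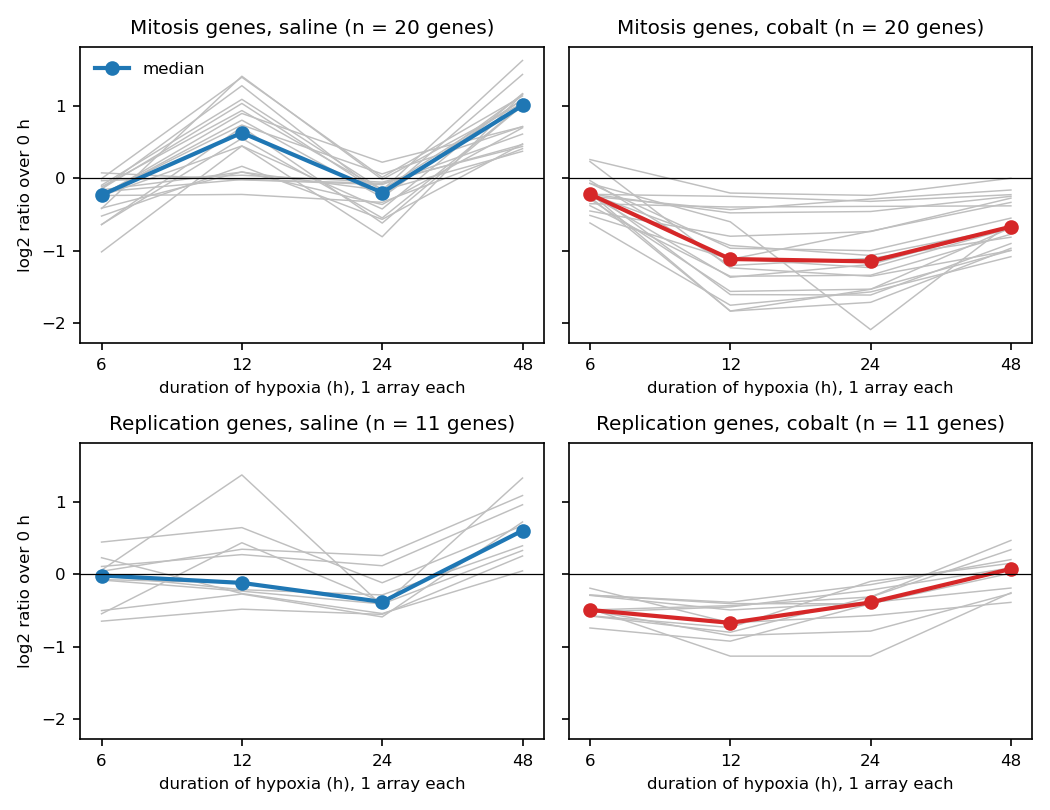
Log2 ratio over 0 h (vertical axis) against the duration of hypoxia in hours (horizontal axis, categories) for the 20 mitosis members (entry, spindle and anaphase roles, top) and the 11 replication members (bottom), saline on the left and cobalt on the right. Grey lines are genes and the thick line is their median; the mitosis genes peak at 12 and 48 h on the saline arrays and are lowest at 12 and 24 h on the cobalt arrays, and the replication genes are above 0 at 48 h on the saline arrays.

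The mitosis members moved together from array to array. After each pretreatment's mean was removed, the median correlation between pairs of the 20 mitosis members over the 8 arrays was 0.86 (190 pairs, from 0.27 to 1.00), between pairs of replication members 0.71 (55 pairs) and between a mitosis and a replication member 0.58 (220 pairs). These points share arrays and the 0 h RNA, and the values are a description. The members most like the mean of the other mitosis members were Bub1 (0.998), Bub1b (0.995) and Kif20a (0.995). Among the members of other roles Ccna2 (0.989), Mcm3 (0.912), Ccne1 (0.910) and Rrm2 (0.904) came closest, and Ccnd1 (0.002) was least like it. For Mcm3 this is the probe used, with 0.44 on the saline 12 h array, where its other probe had -0.07.

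Because they moved together, the promoters of the members were read for the motifs of the mitotic and the replication programme. RefSeq promoters of build GRCr8 were matched for 28 of the 37 members; Mcm4, Rrm2, Ccnd1, Ccne2, Ccna2, E2f1, Aurkb, Tpx2 and Ube2c were not matched. The window is the 250 bases before the annotated start, and both strands were searched. The CCAAT box was searched as CCAAT. The CHR was searched as TTTGAA, and a variant of it as TTTAAA. An E2F word was TTCCCGC, with TTGGCGC as a further form and TTCGCGC as the last. Hits of 1 motif on opposite strands can overlap. Below are 4 promoters of mitosis members whose values are given above and 2 of MCM helicase members, with CCAAT boxes, CHR words of the first form and E2F words in capitals.
Cdk1 promoter, chr20:19265043-19265292, plus strand: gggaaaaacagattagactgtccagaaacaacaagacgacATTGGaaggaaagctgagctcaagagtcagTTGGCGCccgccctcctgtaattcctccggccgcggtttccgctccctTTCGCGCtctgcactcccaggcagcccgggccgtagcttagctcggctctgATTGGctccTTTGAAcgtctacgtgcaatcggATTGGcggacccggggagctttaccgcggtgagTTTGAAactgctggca
Top2a promoter, chr10:84473094-84473343, minus strand: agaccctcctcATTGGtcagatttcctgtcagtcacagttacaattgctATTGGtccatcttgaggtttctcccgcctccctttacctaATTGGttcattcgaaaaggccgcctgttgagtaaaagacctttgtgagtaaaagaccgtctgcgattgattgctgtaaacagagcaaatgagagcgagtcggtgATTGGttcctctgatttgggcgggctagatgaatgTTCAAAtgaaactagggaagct
Mki67 promoter, chr1:199952594-199952843, minus strand: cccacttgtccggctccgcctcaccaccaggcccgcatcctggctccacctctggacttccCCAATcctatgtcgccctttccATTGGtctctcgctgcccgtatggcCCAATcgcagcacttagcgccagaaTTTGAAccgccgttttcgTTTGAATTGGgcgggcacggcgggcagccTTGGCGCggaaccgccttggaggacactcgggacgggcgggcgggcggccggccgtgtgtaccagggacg
Prc1 promoter, chr1:143659231-143659480, plus strand: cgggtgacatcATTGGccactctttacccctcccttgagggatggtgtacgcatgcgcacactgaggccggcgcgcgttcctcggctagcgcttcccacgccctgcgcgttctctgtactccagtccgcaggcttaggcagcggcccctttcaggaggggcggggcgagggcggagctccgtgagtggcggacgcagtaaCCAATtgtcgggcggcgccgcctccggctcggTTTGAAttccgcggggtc
Mcm5 promoter, chr19:13488563-13488812, plus strand: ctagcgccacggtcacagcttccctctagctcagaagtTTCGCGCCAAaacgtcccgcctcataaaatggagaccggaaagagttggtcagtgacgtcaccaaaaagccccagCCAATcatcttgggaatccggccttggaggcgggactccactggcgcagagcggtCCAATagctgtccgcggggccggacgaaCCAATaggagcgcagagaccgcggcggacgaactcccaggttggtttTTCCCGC
Mcm6 promoter, chr13:42404353-42404602, minus strand: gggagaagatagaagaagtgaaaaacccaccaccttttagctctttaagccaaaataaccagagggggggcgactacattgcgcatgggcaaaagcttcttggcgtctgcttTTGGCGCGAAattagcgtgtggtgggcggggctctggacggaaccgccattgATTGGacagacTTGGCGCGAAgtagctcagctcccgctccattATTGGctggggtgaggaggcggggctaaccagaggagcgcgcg

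The Cdk1 window holds 3 CCAAT boxes, 2 CHR words and 2 E2F words, and its CHR words start at -72 and -16 from the start site. The Top2a window holds 4 CCAAT boxes and 1 CHR word, which ends at -17, and Prc1 holds 2 CCAAT boxes and 1 CHR word, which ends at -13. In Mki67, with 4 CCAAT boxes, 2 CHR words and 1 E2F word, a CHR word shares its last base with a CCAAT box. Mcm5 and Mcm6 have no TTTGAA; they hold 3 and 4 E2F words, with 1 and 2 pairs of them overlapping on opposite strands, beside 3 and 2 CCAAT boxes. Of the 17 mitosis members with a promoter, 88.2% held a CCAAT box, 70.6% held 2 or more, 47.1% held TTTGAA, 88.2% held TTTGAA or TTTAAA and 11.8% held an E2F word. Of the 9 replication members 66.7% held a CCAAT box, 11.1% TTTGAA or TTTAAA and 66.7% an E2F word. Over all 27457 promoters of the same length the shares were 34.3% for CCAAT, 9.77% for 2 or more, 16% for TTTGAA, 25.3% for either CHR word and 6.41% for an E2F word. The core of the hypoxia response element, ACGTG or the related GCGTG, was in 52.9% of the mitosis, 33.3% of the replication and 37.9% of all promoters.

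Of the 11 replication members 2 fell on the cobalt arrays, 18.2% called beside 20.8% of all genes (12.3% lower and 8.53% higher). Counted in either direction this is no more than the background. Their median there was -0.34, with 0 of 11 above 0. Over both 48 h arrays 10 of 11 had a mean above 0, beside 11749 of 24162 genes. Pcna, the sliding clamp of DNA polymerase, had saline ratios of 0.45, 0.65, -0.12 and 0.68 and cobalt ratios of -0.29, -0.49, -0.39 and -0.19. All cobalt arrays lie below all saline arrays. Pcna rose on the saline arrays by 0.41 ± 0.12 (1.33-fold, limma adjusted p = 0.0237) and did not pass on the cobalt arrays, at -0.34. Its other probe, with means of 0.56 and -0.45, had the same signs. Mcm2, a subunit of the MCM helicase that unwinds DNA, had saline ratios of -0.07, -0.12, -0.37 and 0.60 and cobalt ratios of -0.74, -0.92, -0.41 and 0.02. The 48 h array was highest within each pretreatment.

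Mcm7, another subunit, had saline ratios of 0.23, -0.26, -0.54 and 0.05 and cobalt ratios of -0.19, -0.67, -0.57 and -0.39, and the groups overlap. It fell on the cobalt arrays by 0.45 ± 0.13 (limma adjusted p = 0.0335), as did Mcm3 by 0.60 ± 0.19 (adjusted p = 0.0484). The other, dimmer probe of Mcm3 had a cobalt mean of -0.37. Mcm4, Mcm5 and Mcm6 did not pass there, with means of -0.15, -0.25 and -0.34. Rrm1, the large subunit of ribonucleotide reductase, had saline ratios of -0.65, -0.48, -0.55 and 0.26 and cobalt ratios of -0.57, -0.73, -0.10 and 0.15. Its 48 h arrays were the 2 above 0. The other, dimmer probes of Rrm1 had -0.03 and -0.01 on the saline 48 h array and 0.16 and 0.08 on the cobalt 48 h array. Rrm2, the small subunit, followed the mitosis members instead, with 1.38 at 12 h and 1.33 at 48 h on the saline arrays and -1.13 at both 12 and 24 h on the cobalt arrays. Its other, dimmer probe had means of 0.13 and -0.10. Tyms, which makes thymidylate, had saline ratios of 0.04, 0.35, 0.26 and 1.09 and cobalt ratios of -0.52, -0.45, -0.22 and 0.09. Tk1, thymidine kinase of the salvage pathway, had 0.96 at 48 h on the saline and 0.47 on the cobalt arrays. The probes of Rrm2 and Tk1 lie on chromosomes 19 and 3 in the coordinates of the files (rn3), not on the chromosomes of these genes in the reference, whereas the probes of the other 34 members with a position do; whether they measure a related copy was not tested.

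Ccnd1, cyclin D1, which carries growth signals into G1, had the lowest p of the members in the average and on the cobalt arrays, and it was least like the mitosis members from array to array. Its saline ratios were -0.28, -0.94, -0.41 and -0.36 and its cobalt ratios were -0.77, -1.01, -1.03 and -0.34. It was below 0 on all 8 arrays. It fell by 0.50 ± 0.13 on the saline arrays and by 0.78 ± 0.13 on the cobalt arrays (limma adjusted p = 0.0159 and 0.00424). Its other probe was also lower in both, with means of -1.54 and -0.62, a larger fall on the saline arrays than that of the probe used. Ccne1, cyclin E1 of the G1/S transition, had 1.80 at 12 h and 1.67 at 48 h on the saline arrays and rose there by 0.99 ± 0.26 (1.98-fold, adjusted p = 0.0147). On the cobalt arrays all 4 of its ratios were below 0, with a mean of -0.81 that did not pass. Its other, dimmer probe had means of 0.14 and -0.07, far smaller on both sides. E2f1, the transcription factor of the G1/S genes, had saline ratios of -0.28, -0.22, 0.10 and 0.94 and cobalt ratios of -1.09, -0.92, -0.95 and -0.38, and fell on the cobalt arrays by 0.84 ± 0.19 (adjusted p = 0.0136). Its other, much dimmer probe had a cobalt mean of -0.21. Ccna2, cyclin A2 of S phase and G2, had a saline mean of 0.48 and a cobalt mean of -0.82, Ccne2, cyclin E2, had 0.22 and -0.24, and Chek1, the DNA damage checkpoint kinase, had 0.18 and -0.07, none of which passed.

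The average of both pretreatments is the comparison in which a dye bias common to both slides cancels. In it 4 of 37 members were called, 10.8% beside 31.9% of all genes (15.7% higher and 16.3% lower), and all 4 fell: Ccnd1 by 0.64 ± 0.10 (0.641-fold, limma adjusted p = 0.00128), Mki67 by 0.46 ± 0.14 (0.727-fold, adjusted p = 0.0342), Prc1 by 0.38 ± 0.10 (0.767-fold, adjusted p = 0.0172) and Mcm7 by 0.29 ± 0.09 (0.817-fold, adjusted p = 0.0342). The share of members called was below that of all genes. The median over the members was -0.22, and 6 members were above 0, the highest being Birc5 at 0.23 ± 0.18. Top2a at -0.61 ± 0.26 and Cdk1 at -0.49 ± 0.22 did not pass (adjusted p = 0.0934 and 0.115). The count rested on single arrays: it was 19, all lower, without the saline 48 h array (51.4%, beside 31.6% of all genes). It was 2 without the saline 24 h, the cobalt 12 h or the cobalt 24 h array (5.41%, beside 27.8%, 24.4% and 23.1%). With duration as a factor, which pairs the arrays of a duration, it was 9 (24.3%, beside 31.8%).

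**Figure D3:**
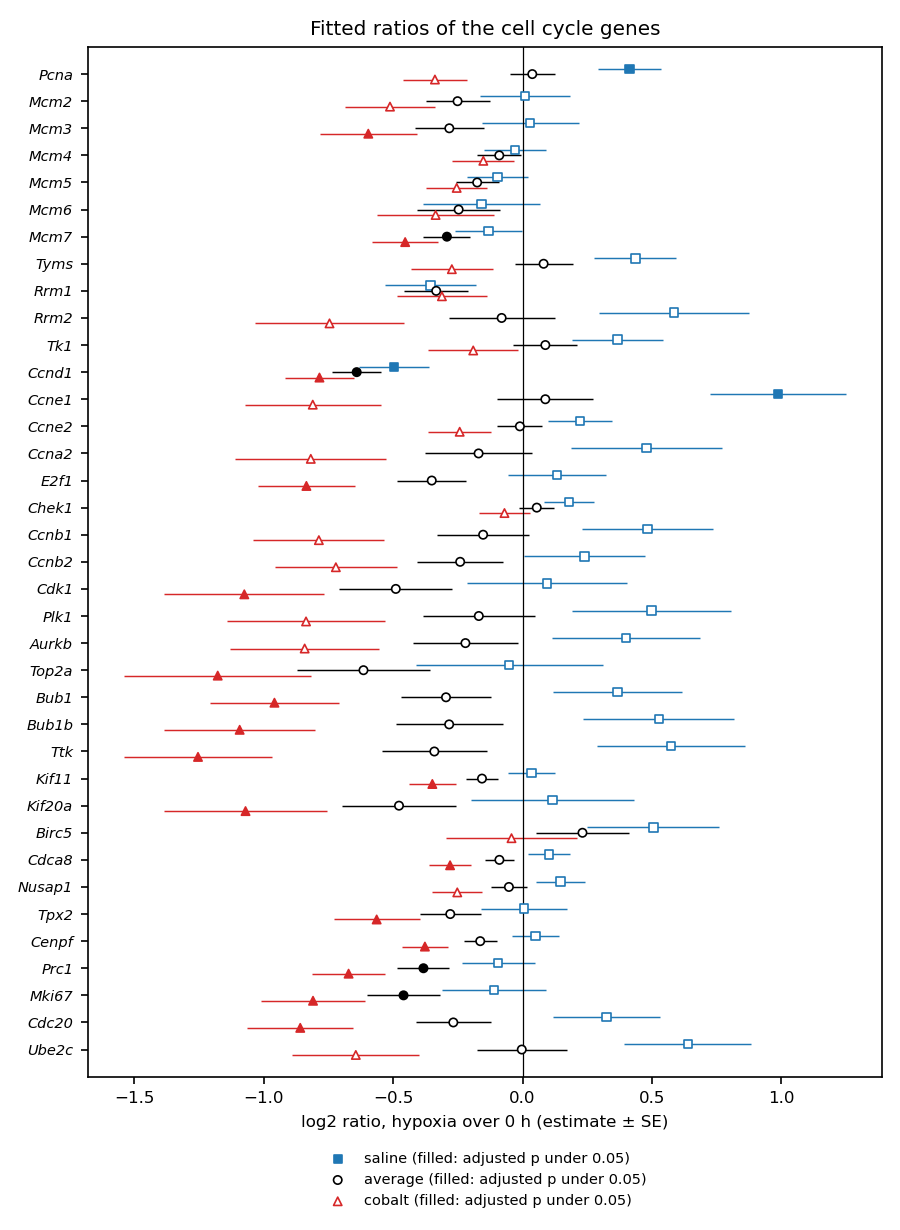
Fitted log2 ratio of hypoxia over 0 h with its SE (horizontal axis) for each member (rows), on the saline arrays (blue squares), the cobalt arrays (red triangles) and their average (black circles); filled symbols have a limma adjusted p under 0.05. Every red triangle lies left of 0, and of the black circles Ccnd1, Prc1, Mcm7 and Mki67 are filled.

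The cobalt ratio was lower than the saline ratio in 17 members by the test of the difference and higher in 0, 45.9% beside 30.1% of all genes (17.4% lower and 12.7% higher). The median difference was -0.70. Ttk at -1.83 ± 0.41 and Ccne1 at -1.80 ± 0.37 had the largest differences (limma adjusted p = 0.00878 and 0.0064), followed by Bub1b at -1.62 ± 0.41. Of the 4 genes called in the average, none was among these 17. The dye of the hypoxia channel differs between the pretreatments in the same way, so pretreatment and dye cannot be told apart here. Without the cobalt 12 h or 24 h array the count was 5 of 37 (beside 22.2% and 21.8% of all genes), without the saline 48 h array 10 (27%, beside 26.7%) and without the saline 12 h array 11 (29.7%, beside 27.8%). In these fits the members' share was near or below that of all genes.

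The levels behind the ratios were compared channel by channel. On the scale of log2 intensity, set to equal quantiles between arrays, the 0 h signal of Cdk1 was 10.03, 10.03, 10.02 and 10.07 on the 4 saline arrays and 11.51, 11.63, 11.54 and 11.59 on the 4 cobalt arrays. These are repeats of 1 RNA per pretreatment, and they do not overlap. Its hypoxia signal was 9.39, 10.58, 9.47 and 11.08 at 6, 12, 24 and 48 h on the saline arrays and 11.26, 9.80, 10.01 and 10.91 on the cobalt arrays, which do overlap. Over all members the 0 h level was higher on the cobalt arrays by a median of 0.76, without overlap in 29 of 37 members beside 28.9% of all genes; in the other direction it was 1 member, Birc5, beside 25.4%. The hypoxia signals differed by a median of -0.03. All genes had medians of 0.01 at 0 h and -0.06 in hypoxia. The largest differences at 0 h were those of Kif20a at 1.73, Ccnb1 at 1.72, Bub1b at 1.65 and Ttk at 1.64, whereas Ccnd1 at 0.04 and Mcm4 at 0.00 hardly differed. The 0 h RNA was read in Cy5 on the cobalt slide and in Cy3 on the saline slide, and the part of dye and slide in this difference was not tested.

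**Figure D4:**
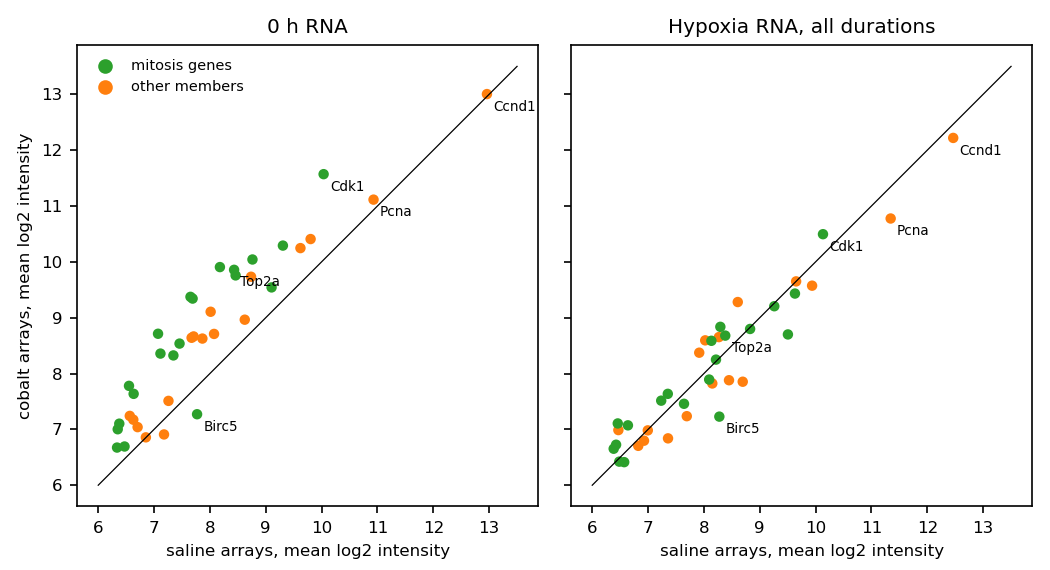
Mean log2 intensity on the 4 cobalt arrays (vertical axis) against that on the 4 saline arrays (horizontal axis) for each member, for the 0 h RNA (left) and the hypoxia RNA (right); green points are the mitosis members, orange points the others and the line marks equal levels. At 0 h most points lie above the line, and Birc5 and Chek1 below it, and in hypoxia they lie on both sides.

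In the mean of both channels, which does not depend on which dye carried which RNA, 22 members differed between the pretreatments, 59.5% beside 44.9% of all genes (21.6% higher and 23.4% lower). Of these 20 were higher on the cobalt arrays and Birc5 and Chek1 were lower, by 0.77 ± 0.22 and 0.39 ± 0.15 (limma adjusted p = 0.0147 and 0.0462). The 0 h signal of Chek1 was 6.97, 6.92, 7.75 and 7.07 on the saline arrays, so its 24 h array stands above the others. Without that array 1 member was called lower. Among the 22 the 3 with the lowest p were Prc1, higher by 0.94 ± 0.10 (adjusted p = 6.79e-05), Mcm2, higher by 0.83 ± 0.11 (adjusted p = 0.000166), and Mcm7, higher by 0.83 ± 0.12 (adjusted p = 0.000339). This comparison is between slides as well as pretreatments. Without the saline 6 h or 24 h array it called 13 and 12 members (35.1% and 32.4%, beside 43.1% and 37.1% of all genes), and without the cobalt 6 h or 48 h array 14 each (37.8%, beside 43.2% and 36.9%). In these fits the members' share was near or below that of all genes.

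Late against early hypoxia, 24 and 48 h against 6 and 12 h, is a comparison in which the 0 h RNA and the dye cancel within a pretreatment. With limma it called 0 of 37 members and 0 of all genes (0% called); at an unadjusted p under 0.05 there were 3 members and 3109 genes, 8.11% and 12.9%. The 3 were Rrm1 at 0.55 ± 0.18, E2f1 at 0.55 ± 0.20 and Tyms at 0.45 ± 0.19 (limma adjusted p = 0.324, 0.344 and 0.382). The replication members had a median of 0.27 with 8 of 11 above 0, and all members a median of 0.09. The latter changed sign under 6 of 18 alternatives, running from -0.16 to 0.33, and gives no direction. The difference of this contrast between the pretreatments called 0 members and 0 genes (0%), with 0 members and 1313 genes at an unadjusted p under 0.05; the lowest p among the members was that of Aurkb, at -1.15 ± 0.74 (adjusted p = 0.953). In simulated data of this design a change of 1 on the log2 scale between late and early was recovered for 65% of the changed genes and one of 0.5 for 0%. At single durations, over 2 arrays each, E2f1 fell at 6 h by 0.68 ± 0.13 (adjusted p = 0.0297; 3.65% of all genes called lower), Ccnd1 and Prc1 fell at 12 h by 0.97 and 0.67 (adjusted p = 0.0248 and 0.0429; 1.97% called lower) and Tk1 rose at 48 h by 0.72 ± 0.09 (adjusted p = 0.0234; 0.778% called higher). At 24 h 0 members were called by limma beside 1.38% of all genes, with 18 members (48.6%) and 4329 genes (17.9%) at an unadjusted p under 0.05.

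Other genes of the same pathways were taken from 4 lists. Of 46 further genes of mitosis and cytokinesis, 28 fell and 1 rose on the cobalt arrays (63% called beside 20.8% of all genes), with a median of -0.64. On the saline arrays 6 rose and 1 fell (15.2% beside 40.1%), with a median of 0.20. Their medians by array followed the members, with -0.15, 0.36, -0.11 and 0.78 on the saline and -0.32, -0.77, -0.83 and -0.62 on the cobalt arrays. In the average 5 fell and 2 rose (15.2% beside 31.9%), with the lowest p for Smc4, a condensin subunit, which fell by 0.41 ± 0.07 (limma adjusted p = 0.00199), the tubulin gene Tubb5, which rose by 0.36 ± 0.06, and Stmn1, which codes for the microtubule-destabilizing stathmin and fell by 0.48 ± 0.08. Cks1b, a subunit of cyclin-dependent kinases, rose by 0.32 ± 0.09 and the kinesin gene Kif23 fell by 0.35 ± 0.11. These averages join unlike sides. Cks1b had saline ratios of 0.97, 1.12, 0.52 and 1.195 and cobalt ratios of 0.07, -0.44, -0.61 and -0.26. Kif23 had saline ratios of -0.31, 0.36, 0.15 and 0.38 and cobalt ratios of -0.30, -1.11, -1.10 and -0.85. Of 40 further genes of replication, 12 fell and 0 rose on the cobalt arrays (30% beside 20.8%) and 9 rose and 2 fell on the saline arrays (27.5% beside 40.1%). In the average 7 fell and 1 rose (20% beside 31.9%); the saline and average shares are below those of all genes. In the average the lowest p were those of the polymerase subunit gene Pold1, at -0.46 ± 0.08 (limma adjusted p = 0.00345), and the maintenance methyltransferase gene Dnmt1, at -0.36 ± 0.07. The primase gene Prim1, at 0.21 ± 0.05, and Rpa1 and Pola1, at -0.32 and -0.25, came next to them. Prim1 was above 0 on the saline arrays only, at 0.49, 0.45, 0.49 and 0.75, beside cobalt ratios of -0.075, -0.089, -0.25 and -0.091. The licensing factor gene Cdt1 fell on the cobalt arrays by 0.52 ± 0.12 (adjusted p = 0.017), and Cdc6, which loads the helicase, did not pass, at -0.28.

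Among 28 regulators 4 rose and 4 fell in the average, 28.6% beside 31.9% of all genes, so the share called is close to the background. Rbl2, the p130 subunit of the DREAM repressor, fell by 0.50 ± 0.05 (limma adjusted p = 0.000161), Rb1 fell by 0.29 ± 0.05, Ccng2 by 0.38 ± 0.06 and Ccnf by 0.13 ± 0.04, and Myc rose by 0.60 ± 0.13. Foxm1, the activator of mitotic genes, had saline ratios of 0.09, 0.62, 0.31 and 0.91 and cobalt ratios of -0.12, -0.72, -0.99 and -0.95. It rose by 0.48 ± 0.16 on the saline and fell by 0.69 ± 0.16 on the cobalt arrays (adjusted p = 0.0394 and 0.0162). Mybl2, which codes for B-MYB, did not pass on either side, at 0.12 and -0.13. Of 25 inhibitors and damage checkpoint genes 3 rose and 6 fell in the average, 36% beside 31.9% of all genes, again close to the background. Gadd45g rose by 1.00 ± 0.11 (adjusted p = 0.000251), and Cdkn1c, the inhibitor p57, Sesn2, Plk2 and Sesn1 fell by 0.77, 0.46, 0.69 and 0.43. Cdkn1a, which codes for p21, the inhibitor of cyclin-dependent kinases, had saline ratios of 2.15, 1.15, 0.28 and 0.08 and cobalt ratios of 1.68, 0.63, 0.54 and 0.04. Both series are highest at 6 h and near 0 at 48 h. Cdkn1a rose in the average by 0.82 ± 0.23 (adjusted p = 0.0242); its late minus early value was -1.17 ± 0.29 (adjusted p = 0.306).

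Markers of other cell types were set beside the members on each array. The order of the saline arrays seen in 29 of 37 members was seen in 9 of 13 markers of T and NK cells, 3 of 7 of B and plasma cells, 1 of 7 of alveolar macrophages and 0 of the erythroid, neutrophil, alveolar epithelium and endothelium markers, and with the margin of 0.5 in 1 marker of B and plasma cells. That marker, Jchain, the joining chain of secreted antibodies, had 0.33, 2.68, -0.89 and 1.28 on the saline arrays, and Tnfrsf17, a receptor of plasma cells, had 0.01, 2.17, -0.58 and 0.45. Both were higher at 12 and 48 h than at 6 and 24 h, as the 29 members were, and on the cobalt arrays they lay between -0.497 and 0.128. The T and NK cell markers had medians of -0.60, -0.16, -0.66 and -0.41 on the saline arrays and 0.21, -0.11, -0.89 and -0.53 on the cobalt arrays, without the rise of the members above 0 at 12 and 48 h on the saline arrays. Of all genes 18.3% were called lower and 21.8% higher on the saline arrays, and 12.3% and 8.53% on the cobalt arrays. On the saline arrays 7 of 10 endothelium and 8 of 10 alveolar epithelium markers fell and 0 rose. On the cobalt arrays 1 and 0 of them fell and 2 of each list rose. The macrophage markers had 2 higher and 1 lower on either side, of 7; the neutrophil markers had 0 higher and 1 lower of 6 on the saline and 0 called on the cobalt arrays; the B and plasma cell markers had 2 lower of 7 and 0; the T and NK cell markers had 7 and 4 lower of 13; the 10 lung markers had 7 lower and 1 higher, and 3 higher and 1 lower. The erythroid markers, with 0 called of 7 on either side, had medians of 2.23 at 48 h on the cobalt arrays and 0.93 at 24 h on the saline arrays, and -0.48 to 0.28 on the others. The part of these cell types in the members' ratios was not tested.

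The probes that carry the calls in the average are 60 bases long. Shown are those of Mcm7, Prc1 and Mki67, called in the average, and of Cdk1, with their positions in rn3 as the files give them.
Mcm7 probe, chr12:17598191-17598893: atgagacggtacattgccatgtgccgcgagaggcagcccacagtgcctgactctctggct
Prc1 probe, chr1:136204418-136206018: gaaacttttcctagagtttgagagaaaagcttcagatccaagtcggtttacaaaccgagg
Mki67 probe, chr1:195464455-195464514: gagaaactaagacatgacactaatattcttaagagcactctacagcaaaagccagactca
Cdk1 probe, chr20:20057555-20057614: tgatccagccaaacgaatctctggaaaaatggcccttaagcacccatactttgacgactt

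The probes of Mcm7 and Prc1 span more genomic bases than they have letters, so their positions cross an intron. Of the 37 members 18 had several probes, and the brightest stands for the gene.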

How the data were processed

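Lung RNA was measured on 8 Agilent 2-colour arrays. Per the file headers, signals were extracted with Agilent Feature Extraction 9.5.1.1, and the deposited mean and background signals are intensity in scanner units. The deposited LogRatio column, per the file headers, gives the log10 ratio of the red to the green channel, background-subtracted and dye-normalized. In the deposited series matrix the values are log2, with medians of 0; set against LogRatio they run as hypoxia over 0 h.

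Signals were corrected by normexp (offset 50) and loess in limma 3.58.1 (R 4.3.3); quantiles of mean intensity were equalized for levels only. Signs were turned on the cobalt arrays. Control and outlier spots were left out. A probe was kept if 4 or more of the 8 arrays had it well above background (either channel) and none lacked it, which left 28440 of 41012. The brightest probe stood for a gene. Names came from accession (10735 probes), symbol (5577) or synonym (3730) in the GRCr8 annotation, and 20970 kept the file's name. The median green signal of an array was 73.9 to 92.8 (background 41.5 to 43) and the red 110 to 163 (background 46.5 to 48); having 1 array per condition limits the precision.

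Ratios were tested with limma, with a variance trend, and p-values were Benjamini-Hochberg adjusted over all 24162 genes; an adjusted p under 0.05 is a call. Fits were tested on simulated data: a change of 1 was recovered for 98.5% of 200 changed genes in the average, 91.5% in the saline, 88.5% in the cobalt comparison and 68% in their difference. All measured members are named; full values are given for those called in the average, those of lowest p in 4 comparisons and 7 chosen by name; pathway genes are named when called, at most 5 per list. Members, lists and rules were chosen with earlier results of these data known. Alternatives were background correction, normalization, filters, probes per gene, outlier spots, variance model, a factor for duration, and fits without each array.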

Additional observations from a re-analysis of the deposited data

Results flagged for a closer look

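The responses of 17 members differed between the pretreatments by limma's test of the difference, and each is lower on the cobalt arrays; pretreatment, slide and dye cannot be told apart in it. Among the mitosis members the log2 difference, cobalt minus saline, was -1.83 for Ttk, -1.62 for Bub1b, -1.33 for Bub1, -1.33 for Plk1, -1.28 for Ube2c, -1.27 for Ccnb1, -1.24 for Aurkb, -1.18 for Cdc20, -0.43 for Cenpf, -0.38 for Cdca8 and -0.38 for Kif11. Among the G1/S members it was -1.80 for Ccne1, -1.30 for Ccna2 and -0.97 for E2f1. Among the replication members it was -1.33 for Rrm2, -0.75 for Pcna and -0.71 for Tyms. Adjusted p ran from 0.0064 for Ccne1 to 0.0455 for Kif11. The hypoxia channel of Kif11 and Cdca8 was well above background on only 2 and 1 of the 4 cobalt arrays.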

How the results depend on the processing

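Under median centring in place of loess the median of all genes moved to 0.28 on the saline and -0.49 on the cobalt arrays, and the counts of members called were 16 in the average (all lower; 43.2% beside 47.4% of all genes), 16 on the saline arrays (all higher; 43.2% beside 59.1%), 30 on the cobalt arrays (81.1% beside 80.5%), 32 in the difference (86.5% beside 79%) and 9 over the single durations, beside 4 before. These shares are near or below the background. Relative to all genes the members' medians were then 0.18 and -0.82, beside 0.12 and -0.63 with loess. Scaling between arrays called 27 on the cobalt arrays, the software's log ratio and the series matrix 5 each on the saline arrays, and duration as a factor, the paired fit, 9 in the average and 23 in the difference. Leaving out 1 array gave 2 to 19 calls in the average, beside 23.1% to 32.3% of all genes. On the saline arrays it gave 0 to 5, beside 31.9% to 39.9%, and on the cobalt arrays 1 to 23, beside 9.52% to 24.5%. The difference had 5 to 21 calls, beside 21.8% to 31.2%, and the level of both channels 12 to 23, beside 36.9% to 46.5%. Late minus early stayed at 0 calls under each alternative run.

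Ccnd1 was called in the average under 19 of 19 alternatives and Prc1 under 18 of 18, since the strict filter drops it; Mcm7 and Mki67 were called under 14 of 19 and lost when single arrays were left out, with adjusted p up to 0.0933 and 0.0942. Members near 0 in the average changed sign: Ccne1 was -0.0028 by the software's log ratio, -0.0025 in the series matrix, -0.063 under median centring and -0.084 under scaling; Pcna was -0.023 and -0.031 under the last 2; and Cdca8 was 0.0016 and Nusap1 0.017 under median centring. With 1 array left out their averages ran from -0.048 to 0.23 for Ccne1, -0.0062 to 0.13 for Pcna, -0.21 to 0.088 for Rrm2, -0.13 to 0.10 for Ube2c, -0.099 to 0.041 for Ccne2, -0.028 to 0.15 for Tyms, -0.022 to 0.14 for Tk1 and -0.00024 to 0.089 for Chek1. The saline order of 12 h and 48 h above 6 h and 24 h, an alternative chosen after seeing the data, held in 23 to 32 members, and all 4 cobalt arrays were below 0 in 21 to 32. With the main processing 12.9% and 27.1% of all genes had these orders. The hypoxia channel of Nusap1 was not well above background on any cobalt array, which leaves only a bound there.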
